A study of Homo sapiens with 2 samples.

Results

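The cytosolic ribosomal protein genes encode the proteins that, with ribosomal RNA, make up the small and large subunits of the ribosome that translates messenger RNA in the cytoplasm. Unlike the genes of ribosomal RNA, they are single genes scattered over the genome. They are transcribed strongly in growing cells, and their messenger RNAs typically begin with a run of pyrimidines, the 5′ terminal oligopyrimidine tract, through which their translation follows nutrient and growth signals. Many of them carry small nucleolar RNA (snoRNA) genes in their introns, which guide the chemical modification of ribosomal RNA. Here their place was described in the domains of HepG2, an established line of human liver cancer cells. Topologically associating domains are stretches of a chromosome that contact themselves more than their surroundings, and boundaries are the edges between them. Strongly transcribed housekeeping genes are known to be common near such boundaries.

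Members were the protein-coding genes of the RefSeq table of GRCh38 (hg38) with a symbol of RPL or RPS and a number, together with RPLP0, RPLP1, RPLP2 and RPSA. Of 101 symbols of that pattern, 10 RPS6K kinases, 8 paralogs ending in L or L1, 3 read-through genes and RPS19BP1, which encodes a binding protein of a ribosomal protein, were left out. This gave 79 members among 20056 protein-coding genes, and 77 of them (46 of the large and 31 of the small subunit) lay on the 23 chromosomes with domains. RPS4Y1 and RPS4Y2, on chromosome Y, were not analysed here.

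The study compared 2 groups of HepG2 cells with 1 Hi-C library each. In the PA+OA group the cells were kept for 48 h with palmitic acid at 120 µM, a saturated fatty acid, and oleic acid at 240 µM, a monounsaturated one, in DMEM with 1% fatty acid-free BSA. The mock group had DMSO at 1/1000 for the same time. Both groups were grown in DMEM with 10% fetal bovine serum and antibiotics, and the labels do not say whether serum stayed in during treatment. The labels leave unclear whether the mock medium held BSA too, so that fatty acids and vehicle cannot be told apart. Each library was deposited as a list of domain positions, 2679 domains for mock and 2524 for PA+OA, so the sequencing depth behind an edge is unknown and the cell type could not be checked against marker genes. With no replicates, each difference between the lists is one between 2 libraries and has no test. Intervals are 95% intervals that cover counting error over genes only.

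The promoters show what the members have in common before any domain is considered. The RefSeq promoter table (GRCh38.p14) held 62 of the 77 members, and its entry nearest to the start of the gene record was read. The pyrimidine tract was searched as CTTTTC or CTTTCC on the sense strand, from 15 bases before to 15 bases after the transcription start. A match was found in 24 of 62 members (38.7%, Wilson interval 27.6 to 51.2%) and in 2.65% of 15813 protein-coding promoters. The 8 members below have a match, in capitals, and also lie within 40 kb of a domain boundary in at least 1 list. Each window runs 5′ to 3′ on the strand of the gene, with the start of transcription at its 16th base.
RPS27, chr1:153990747-153990776, plus strand: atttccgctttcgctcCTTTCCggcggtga
RPL31, chr2:101002274-101002303, plus strand: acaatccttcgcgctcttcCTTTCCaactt
RPSA, chr3:39406705-39406734, plus strand: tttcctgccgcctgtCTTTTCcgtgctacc
RPS10, chr6:34426055-34426084, minus strand: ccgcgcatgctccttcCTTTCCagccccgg
RPL10A, chr6:35468386-35468415, plus strand: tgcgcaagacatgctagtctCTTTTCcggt
RPS12, chr6:132814554-132814583, plus strand: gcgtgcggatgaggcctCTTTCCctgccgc
RPS24, chr10:78033848-78033877, plus strand: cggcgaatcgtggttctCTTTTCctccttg
RPL36A, chrX:101390996-101391025, plus strand: tttgcctcgcggtttctttCTTTCCgcgcc

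Members with and without a match of the tract search stood at boundaries. The search was for CTTTTC or CTTTCC only and missed other pyrimidine runs at the start, such as those of RPL27A and RPS25. A match before the start, as in RPL17, lies outside the annotated transcript. In RPL10A the annotated transcript begins with purines, and the match lies farther inside it. Members without a match are therefore not shown to lack a tract, and those with a match are not shown to have one. Of the 19 members with a promoter entry and a boundary within 40 kb in either list, 8 matched (42.1%, interval 23.1 to 63.7%). Of the other 43 members, 16 matched (37.2%, 24.4 to 52.1%). The motif CCGGAAG of ETS factors, searched on both strands over the whole entry, from 250 bases before to 50 after the start, was in 21 of 62 members (33.9%) and in 14.1% of all promoters. Its reverse complement CTTCCGG is rich in pyrimidines too and can share end letters with the tract. TATAAA, searched on the sense strand from 40 to 15 bases before the start, was in 2 members (3.23%) and 3.67% of all promoters. The YY1 motif, on both strands, was in 3 members (4.84%) and 1.88% of all promoters. A loose form of the core motif of the boundary protein CTCF was in 8 members (12.9%, both strands), which is the share of all promoters as well (12.9%), and in 1 of the 19 members near a boundary (5.26%, 0.935 to 24.6%). A match in these windows describes letters and not binding.

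The snoRNA genes were a further shared feature. A RefSeq snoRNA record lay inside the gene record, on either strand, of 29 of 77 members (37.7%), with 60 snoRNA genes in all, against 2.63% of 19974 protein-coding genes. The share was 26.3% among the 19 members within 40 kb of a mock boundary and 41.5% among the 53 farther away. RPS12 held 3 snoRNA genes, and RPSA, RPL27A, RPS13 and RPS2 held 2 each.

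In both lists, a larger share of ribosomal protein genes than of all protein-coding genes lay beside a domain boundary. In the mock list 19 of 72 members had their midpoint within 40 kb, the width of 1 bin of the lists, of a boundary (26.4%, Wilson interval 17.6 to 37.6%), where 10.8% of all 19702 genes placed did. In the PA+OA list it was 15 of 73 (20.5%, 12.9 to 31.2%), where 10.7% of 19654 genes did. Within 20 kb the shares were 12.5% of members and 5.59% of all genes for the mock list, and 11.0% and 5.52% for the PA+OA list. Within 80 kb they were 33.3% and 19.8% for the mock list, and 31.5% and 19.4% for the PA+OA list. Within 160 kb the gap in percentage points was smaller than at 40 or 80 kb, though not smaller than at 20 kb. The shares there were 41.7% of members and 33.9% of all genes for mock boundaries, and 39.7% and 33.1% for PA+OA boundaries. The window of 20 kb is finer than the placement of an edge, which the lists give in steps of 40 kb. In the mock list, RPL19 at 37.5 kb was the last member inside the window and RPS15 at 40.6 kb the first outside it.

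**Figure D1:**
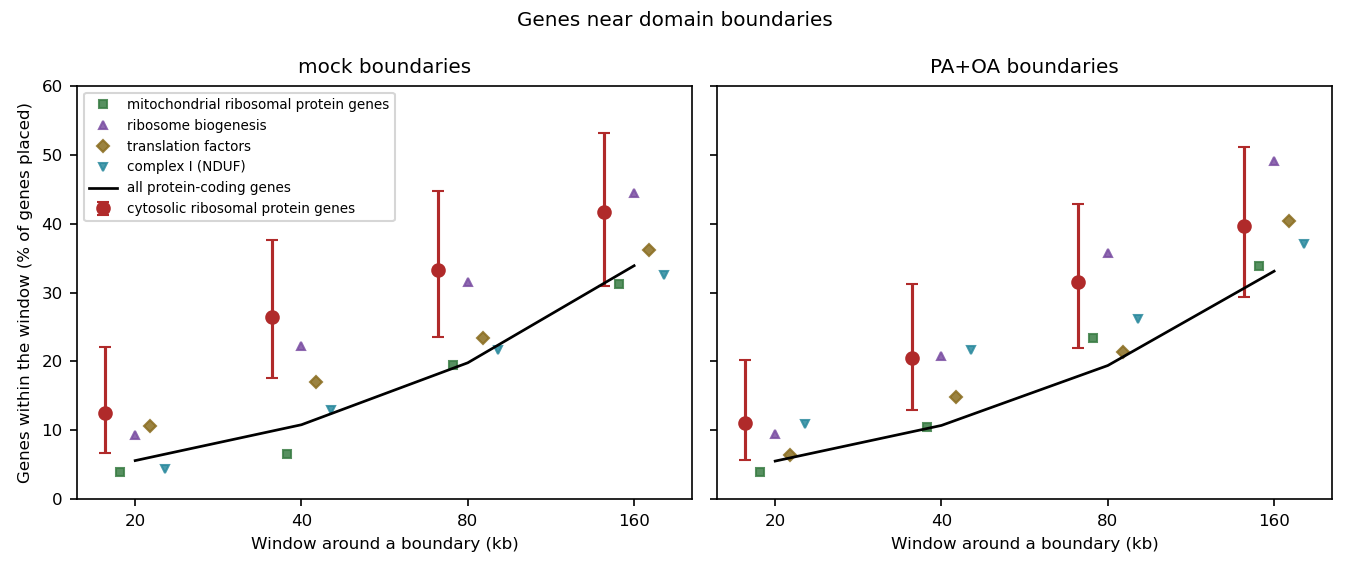
Share of genes (y axis, percent of genes placed) whose midpoint lies within 20, 40, 80 or 160 kb of a boundary (x axis) of the mock list (left) and the PA+OA list (right); the bars on the cytosolic ribosomal protein genes are Wilson 95% intervals, and the black line is all protein-coding genes. At 40 kb the members stand at 26.4% and 20.5%, and all genes at 10.8% and 10.7%.

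The median distance was below that of all genes in the mock list and above it in the PA+OA list, with both values of all genes inside the intervals of the members. The median distance to a mock boundary was 275 kb for members (interval 109 to 495 kb) and 297 kb for all genes, and that to a PA+OA boundary was 390 kb (155 to 594 kb) and 313 kb. Without the 7 chromosomes of long domains (9, 13, 14, 15, 19, 21 and 22) the medians were 119 kb for members and 239 kb for all genes by mock boundaries, and 199 and 236 kb by PA+OA boundaries, which turns the direction in the PA+OA list. The lower quartile set them apart, at 36.8 kb for members and 107 kb for all genes by mock boundaries and at 60.4 kb and 110 kb by PA+OA boundaries. The upper quartile was 749 kb for members and 674 kb for all genes in the mock list. The members ranged from genes at boundaries to genes far from any, with 13 over 1 Mb from a mock boundary and 14 from a PA+OA boundary. The share of all genes at such distances was not counted, so the far members are not shown to be a separate group. RPL15 in the large subunit was the farthest in the mock list, at 3799 kb, and RPS6 in the PA+OA list, at 7942 kb.

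**Figure D2:**
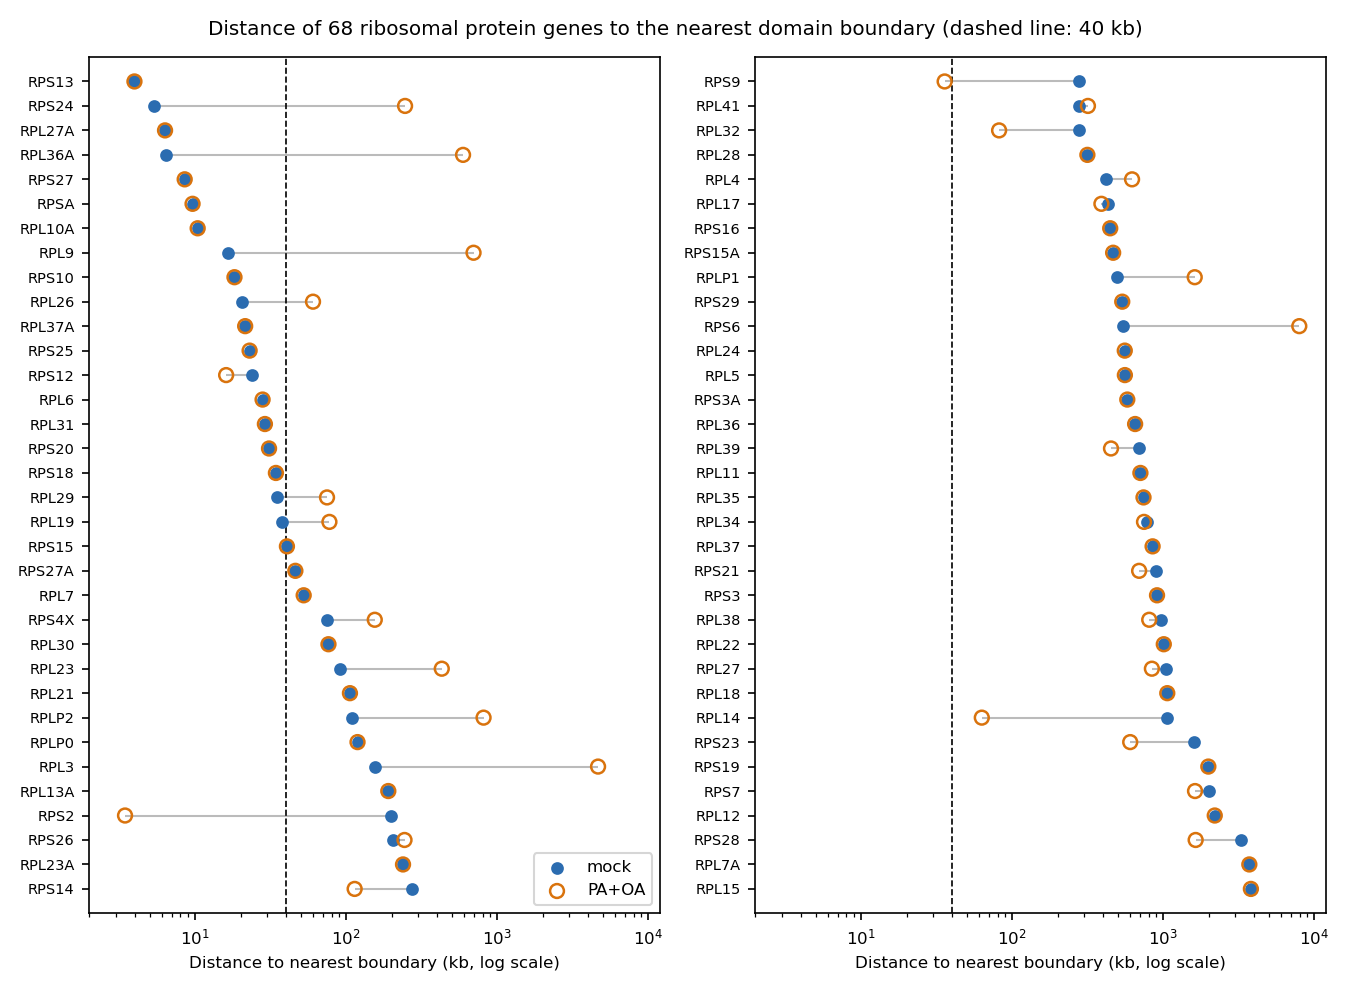
Distance from the gene midpoint to the nearest boundary (x axis, kb, log scale) for 68 of the 72 members placed in both lists, ordered by the mock value; filled points are the mock list, open points the PA+OA list, and the dashed line marks 40 kb. For 38 of the 68 the points coincide, and RPS2, RPL3, RPL36A and RPS24 are among those with long lines.

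In the small subunit, 9 of 30 members lay within 40 kb of a mock boundary (30.0%, interval 16.7 to 47.9%, all genes 10.8%). Within 40 kb of a PA+OA boundary it was 10 of 30 (33.3%, 19.2 to 51.2%, all genes 10.7%). RPS13 was 3.97 kb from the boundary at 17080000 on chromosome 11 in both lists, and the midpoint of PIK3C2A, a lipid kinase gene, lay 67.3 kb beyond it. RPS27 was 8.54 kb from the boundary at 154000000 on chromosome 1 in both lists. RPSA, whose product is also a laminin receptor, was 9.63 kb from the boundary at 39400000 on chromosome 3 in both lists, with the mitochondrial carrier gene SLC25A38 just across it at 9.64 kb. These 3 genes kept their boundary at the same position in both libraries.

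RPS10 (18.2 kb), RPS25 (22.97 kb), RPS20 (30.9 kb) and RPS18 (34.3 kb) also had the same distance in both lists. HYOU1, the gene of an endoplasmic reticulum chaperone, faced RPS25 across its boundary at 10.7 kb, and the kinase gene LYN faced RPS20 at 93.0 kb. RPS12 stood between the positions given by the lists. Its boundary was at 132840000 on chromosome 6 in the mock list, 23.9 kb beyond the gene, and at 132800000 in the PA+OA list, 16.1 kb before it. RPS12 was therefore in the domain on 1 side of the boundary in the mock list, with 10 protein-coding genes, and alone on the other side in the PA+OA list, in a domain of 160 kb with 1 gene.

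In the large subunit, 10 of 42 members lay within 40 kb of a mock boundary (23.8%, interval 13.5 to 38.5%, all genes 10.8%). Within 40 kb of a PA+OA boundary it was 5 of 43 (11.6%, 5.07 to 24.5%), close to the 10.7% of all genes. In the PA+OA list the larger share of members was thus seen in the small subunit. The intervals of the subunits overlap in either list, and their difference was not tested. RPL27A was 6.33 kb from the boundary at 8680000 on chromosome 11, RPL10A 10.4 kb from that at 35480000 on chromosome 6, RPL37A 21.5 kb from that at 216480000 on chromosome 2, RPL6 28.0 kb from that at 112440000 on chromosome 12, and RPL31 29.0 kb from that at 101040000 on chromosome 2, each the same in both lists. The phosphatase gene PTPN11 faced RPL6 at 24.4 kb, and the transcription factor gene TEAD3 faced RPL10A at 5.34 kb. Each of the 4 members on chromosome 6, RPS18, RPS10, RPL10A and RPS12, was near a boundary in both lists, where 13.9% (mock) and 16.8% (PA+OA) of all genes on that chromosome were. This chromosome was picked after the counts were seen.

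Of the 21 within 40 kb in either list, 13 were so in both (18.1% of 72, where 7.98% of all genes were), and for 12 of these it was the boundary at the same position. Of the 19 members near a mock boundary 68.4% were also near a PA+OA boundary (interval 46.0 to 84.6%, all genes 73.8%), and of the 15 near a PA+OA boundary 86.7% were also near a mock boundary (62.1 to 96.3%, all genes 74.6%), so the overlap is close to that of all genes. A further 6 were near in the mock list only (8.33%, 3.88 to 17.0%, all genes 2.83%) and 2 in the PA+OA list only (2.78%, all genes 2.71%). For 3 of the 6, RPL29, RPL26 and RPL19, the PA+OA boundary was 1 bin farther away, at 74.7, 60.4 and 77.5 kb, so the change is the smallest step the lists can show. For RPL9, RPS24 and RPL36A the PA+OA list had no boundary within 1 bin of the mock boundary.

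**Figure D3:**
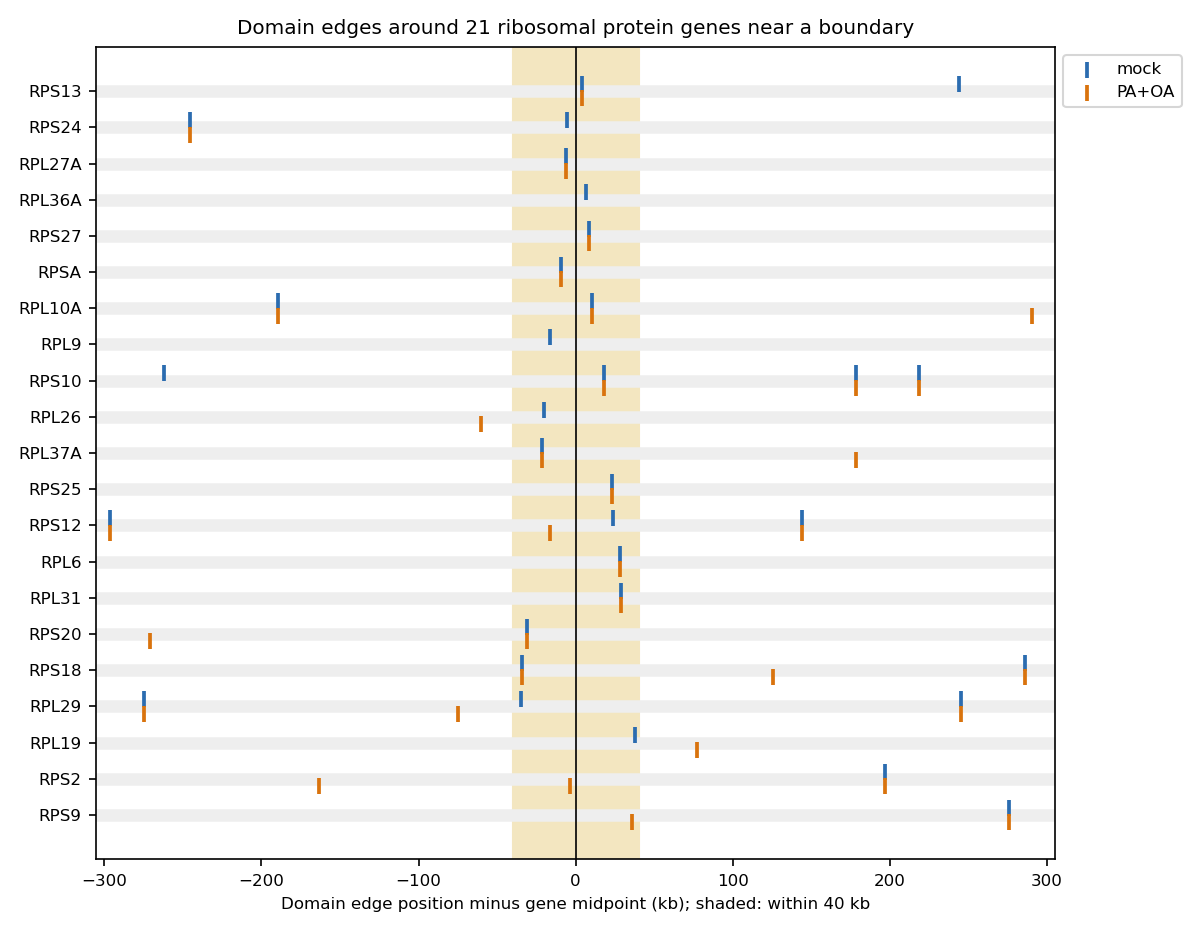
Domain edges around the 21 members within 40 kb of a boundary in either list, as edge position minus gene midpoint (x axis, kb); blue ticks are mock edges, orange ticks PA+OA edges, and the shaded band marks 40 kb to either side. In 12 genes the same edge stands in the band in both lists, RPS12 has an edge to either side, and RPL9, RPS24, RPL36A, RPS2 and RPS9 have an edge in the band from 1 list with no match in the other.

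Boundaries found in 1 list only came within 40 kb of 5 of 73 members (6.85%, interval 2.96 to 15.1%), where 4.76% of all genes had one. With only boundaries at identical positions counted as matched, it was 9 of 73 members (12.3%) and 6.15% of all genes. RPL9, a protein near the base of the ribosomal stalk, was 16.5 kb from a mock boundary at 39440000 on chromosome 4 and 697 kb from the nearest PA+OA boundary. RPS24 was 5.33 kb from a mock boundary at 78040000 on chromosome 10 and 245 kb from a PA+OA boundary. That mock edge fell within the RPS24 gene record. RPL36A was 6.42 kb from a mock boundary at 101400000 on the X chromosome and 594 kb from a PA+OA boundary. Mock boundaries without a match within 1 bin were near 3 of 72 members (4.17%, all genes 2.44%).

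The PA+OA list in turn had such boundaries near 2 of 73 members (2.74%, all genes 2.34%). RPS2 was 3.44 kb from a PA+OA boundary at 1960000 on chromosome 16, which set it apart from RPL3L, the muscle paralog of RPL3, 10.7 kb beyond the edge. In the mock list its nearest boundary was 197 kb away. RPS9 was 35.7 kb from a PA+OA boundary at 54240000 on chromosome 19, with LILRB5, a leukocyte receptor gene, 13.3 kb across it, and 276 kb from a mock boundary. Over all 72 members in both lists, the nearest boundary was at the same position for 40 (55.6%, all genes 55.7%), farther in the PA+OA list for 17 (23.6%, all genes 24.4%) and farther in the mock list for 15 (20.8%, all genes 19.9%). These shares are close to those of all genes.

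Some members lay past the end of the listed domains. RPL35A, at the end of chromosome 3, was 273 kb beyond the last mock domain and 153 kb beyond the last PA+OA domain, RPL8, on chromosome 8, was 471 and 271 kb beyond them, and RPL13, on chromosome 16, was 3.74 kb beyond both. RPL10, on the X chromosome, was 560 kb beyond the mock list and lay in a PA+OA domain of 3480 kb. Members were thus outside the mock list in 5 of 77 cases (6.49%, interval 2.81 to 14.3%), where 1.36% of all genes were, and outside the PA+OA list in 4 (5.19%, 2.04 to 12.6%), where 1.6% were. The lists end at different places on some chromosomes, so a gene outside has no domain to compare.

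The domains that hold ribosomal protein genes had about the size of those that hold any gene. Their median was 1640 kb in the mock list (interval 1120 to 2160 kb), where that over all genes was 1480 kb, and 1520 kb in the PA+OA list (1000 to 2840 kb), where that over all genes was 1560 kb. The range was wide, from 200 to 19080 kb for mock domains and from 160 to 27360 kb for PA+OA domains. The smallest mock domains were those of RPL10A (200 kb), RPS4X (240 kb), RPS10 and RPL29 (280 kb each), and RPS12, RPS13, RPL27A and RPS18 (320 kb each). All of these but RPS4X also had a boundary within 40 kb. A small domain limits how far a gene can lie from an edge, but does not by itself place it within 40 kb. The share of all genes in domains of this size was not counted. In all mock domains under 1 Mb, 60% of members and 22.9% of all genes were within 40 kb of a mock boundary. RPS6, the classical substrate of the S6 kinases, lay in the largest, with 19080 kb on chromosome 9, followed by RPS16 with 15840 kb, RPL36, RPS28 and RPL7A with 7960 kb each and RPL15 with 7840 kb. Domains under 1 Mb held 25 of 72 members in the mock list (34.7%, all genes 33.2%), and domains over 3 Mb held 20 (27.8%, all genes 23.5%). In the PA+OA list, domains over 3 Mb held 26 of 73 members (35.6%, all genes 30.1%) and those under 1 Mb 26 as well (35.6%, all genes 33.6%).

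The domain of a member was more often longer in the mock list than in the PA+OA list, and that of all genes more often longer in the PA+OA list. The domain had equal coordinates in both lists for 20 of 72 members (27.8%, all genes 34%). It was longer in the PA+OA list for 23 (31.9%, interval 22.3 to 43.4%, all genes 36.2%) and longer in the mock list for 29 (40.3%, 29.7 to 51.8%, all genes 29.3%). A difference of over 2-fold was seen for 10 members with the PA+OA domain longer (13.9%, all genes 15.7%) and for 10 with the mock domain longer (13.9%, all genes 10.7%). RPL3, which reaches towards the peptidyl transferase centre, lay in a mock domain of 360 kb, from 39160001 to 39520000 on chromosome 22, with 7 protein-coding genes. In the PA+OA list it was in a domain of 26360 kb with 358 genes, 73.2 times as long, and its distance to the nearest edge went from 156 to 4644 kb, the latter to the last edge of the PA+OA list on that chromosome. RPL21 had a mock domain of 1200 kb on chromosome 13 and a PA+OA domain of 27360 kb from the start of the chromosome, but its nearest boundary, 106 kb away at 27360000, was the same in both.

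**Figure D4:**
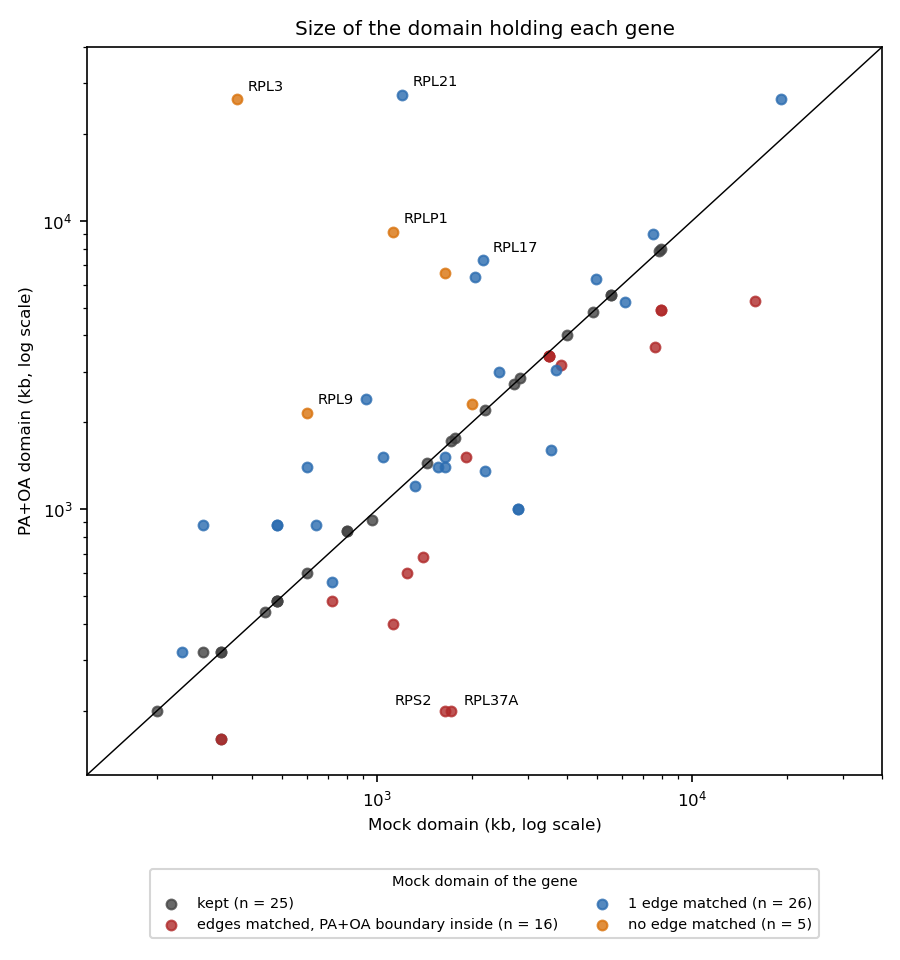
Size of the domain holding each of the 72 members in the mock list (x axis, kb, log scale) and in the PA+OA list (y axis, kb, log scale); the line marks equal size and the colours give the match of the edges of the mock domain. RPL3 and RPL21 stand farthest above the line, and RPL37A and RPS2 farthest below it.

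On chromosome 15, RPLP1 went the same way as RPL3. RPLP1, a phosphoprotein of the stalk that recruits elongation factors, had a mock domain of 1120 kb and a PA+OA domain of 9160 kb. Its distance to a boundary went from 495 to 1615 kb. RPL9, with 600 and 2160 kb, and RPL17, which lines the tunnel of the nascent peptide, with 2160 and 7280 kb, were also among the 8 largest ratios, with a longer PA+OA domain. RPL37A and RPS2 went the other way. RPL37A had a mock domain of 1720 kb with 8 genes and a PA+OA domain of 200 kb with 2 genes, with the same boundary 21.5 kb away. RPS2 had a mock domain of 1640 kb with 84 genes and, with fatty acids, 1 of 200 kb with 14 genes. RPL3, RPL21 and RPLP1 are on chromosomes 22, 13 and 15, which have long domains in at least 1 list, and the part of this in their values was not tested.

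The other stalk genes, and the genes RPL5, RPL11, RPS19 and RPS6, included equal and differing domains. RPLP0, the base of the stalk, was 119 kb from the boundary at 120080000 on chromosome 12 in both lists, in a mock domain of 2200 kb and a PA+OA domain of 1360 kb. RPLP2, its partner near the end of chromosome 11, had a mock domain of 920 kb and a PA+OA domain of 2400 kb, and was 109 kb from the mock edge at 920000. Its nearest PA+OA edge, 811 kb away, was the start of the chromosome, and the edge to the next PA+OA domain, at 2400000, was 1589 kb away. RPL5 and RPL11, which with 5S ribosomal RNA bind MDM2 and so link ribosome assembly to p53, lay in domains with equal coordinates, from 92280001 to 94480000 and from 22680001 to 24400000 on chromosome 1. RPL5 was 557 kb and RPL11 706 kb from a boundary in both lists. RPS19, the first gene linked to Diamond-Blackfan anaemia, an inherited failure of red cell production, was 1987 kb from a boundary in both lists, in domains of 4960 and 6280 kb. RPS6 was 542 kb from a mock boundary that had no match in the PA+OA list, and its domain measured 26440 kb there.

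The share of members in a domain that was the same in both lists was below that of all genes by less than counting error. A domain is called kept where both its edges had a boundary of the other list within 1 bin and none lay farther inside. Kept mock domains held 25 of 72 members (34.7%, interval 24.8 to 46.2%), where 41.1% of all genes were in one, and kept PA+OA domains held 25 of 73 (34.2%, 24.4 to 45.7%), where 41% were. The intervals take in the shares of all genes. Both edges were matched, with or without a boundary inside, for the mock domains of 41 members (56.9%, all genes 56.8%) and the PA+OA domains of 37 (50.7%, all genes 60.5%). The kept genes were the same 25 in both lists, and included RPL22, RPL11, RPL5, RPL31, RPL15, RPL29, RPS3A, RPL37, RPL10A, RPS12, RPS20, RPL7, RPL35, RPL12, RPL7A, RPL27A, RPS13, RPS25, RPS26, RPL41, RPL6, RPL23A, RPS15 and RPL28. Of the 25, 20 lay in domains with equal coordinates (27.8% of 72, all genes 34%). RPL29, RPS20, RPS26 and RPL41 had an edge 1 bin apart, and for RPS12 the kept domains were neighbours, as given above. The kept domains of members had a median of 960 kb and ranged from 200 to 7960 kb in the mock list, and 9 of the 19 members near a mock boundary were in one.

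A further 16 members lay in mock domains with matched edges that held an added PA+OA boundary (22.2%, interval 14.2 to 33.1%, all genes 15.7%). They included RPS27, RPS7, RPL37A, RPL32, RPL24, RPS18, RPS2, RPL26, RPL38, RPL36, RPS28, RPS16, RPL18, RPL13A and RPS9. Of the 16, 7 are on chromosome 19. For RPL32 the division shortened the domain from 1120 to 400 kb, and for RPS7 from 7600 to 3640 kb. In the reverse case, 12 of 73 members lay in PA+OA domains with matched edges and a mock boundary inside (16.4%, 9.66 to 26.6%, all genes 19.4%), among them RPS27A, RPL9, RPS10, RPS6, RPS24, RPLP2, RPL21, RPL4, RPLP1, RPS19 and RPL3.

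**Figure D5:**
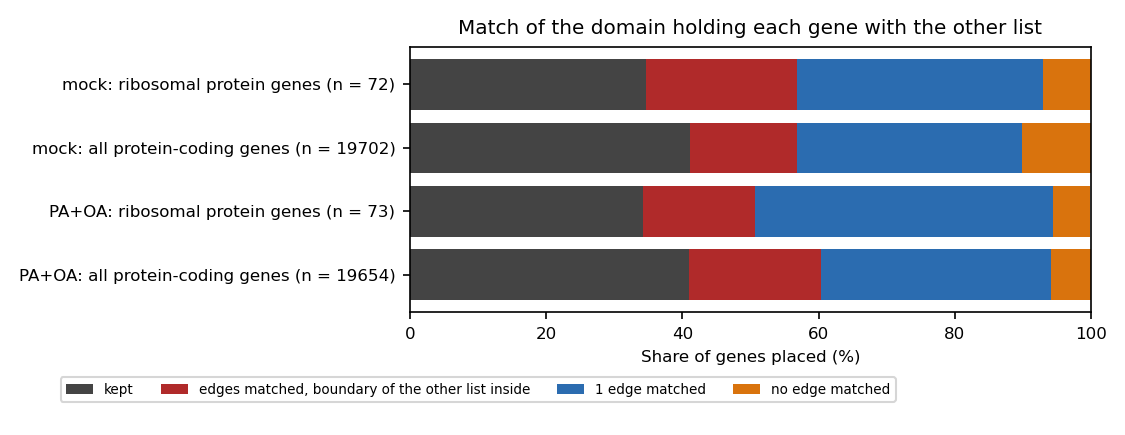
Share of genes (x axis, percent of genes placed) by the match of the domain that holds them with the other list, for the members and for all protein-coding genes in each list. Kept domains hold 34.7% of members and 41.1% of all genes in the mock list, and 34.2% and 41% in the PA+OA list.

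The remaining mock domains had an edge unmatched. Those of 26 members had 1 edge matched (36.1%, all genes 33.1%), among them RPS27A, RPSA, RPL14, RPL34, RPS23, RPS14, RPS10, RPL30, RPS6, RPS24, RPLP2, RPS3, RPLP0, RPL21, RPS29, RPL4, RPS15A, RPL23, RPL19, RPL27, RPL17, RPS19, RPS4X, RPL36A and RPL39. Those of 5 members, among them RPL9, RPLP1, RPS21 and RPL3, had no edge matched (6.94%, all genes 10.1%). The PA+OA domains of 32 members had 1 edge matched (43.8%, all genes 33.7%), and those of RPL14, RPS23, RPL27 and RPL38 had none (5.48%, all genes 5.86%). RPS23 had a mock domain of 3560 kb and a PA+OA domain of 1600 kb. RPS27A, which is made as a fusion with ubiquitin, lay in 2040 and 6360 kb, but had the same boundary 46.1 kb away.

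The members were spread over most chromosomes. They lay on 21 of 23 chromosomes, with 12 on chromosome 19, and had a median of 11.5 Mb to the next member of the same chromosome. The 72 members of the mock list occupied 65 domains and the 73 of the PA+OA list 67. Of pairs of members, 8 shared a mock domain and 7 a PA+OA domain. Over all genes placed, about 300200 pairs shared a mock domain (19702 genes) and about 374400 a PA+OA domain (19654 genes). Neither these pairs as a share of possible pairs nor the spacing of all genes was computed. The members are thus not shown to share domains less often, or to lie farther apart, than other genes. RPS26 and RPL41 (74.0 kb apart, chromosome 12), RPL23 and RPL19 (352 kb, chromosome 17), RPL35 and RPL12 (2590 kb, chromosome 9), RPL36 and RPS28 (2631 kb, chromosome 19) and RPL18 and RPL13A (873 kb, chromosome 19) were among those that shared a domain in both lists. RPSA and RPL14, 1053 kb apart on chromosome 3, shared a mock domain of 2800 kb with 12 genes. In the PA+OA list they were apart, RPSA in a domain of 1000 kb with 4 genes and RPL14 in one of 1000 kb with 6 genes, and RPL14 was 63.0 kb from the added boundary where its nearest mock boundary was 1063 kb away.

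Other genes of protein synthesis, and the genes of respiratory complex I, were set beside the members at the 40 kb window. The mitochondrial ribosomal protein genes, which serve the separate ribosome of that organelle, were near a mock boundary in 5 of 77 cases (6.49%, interval 2.81 to 14.3%) and near a PA+OA boundary in 8 (10.4%, 5.36 to 19.2%). Of the 47 translation factors, 8 (17.0%) and 7 (14.9%) were near one, respectively. Genes of ribosome biogenesis were near one in 12 of 54 (22.2%, 13.2 to 34.9%) and 11 of 53 cases (20.8%), shares like those of the members. Of 46 NDUF genes, which encode subunits and assembly factors of respiratory complex I, 6 (13.04%) and 10 (21.7%) were near one. The nearness to boundaries is thus not shown to be particular to the members. Kept mock domains held 45.5% of mitochondrial ribosomal protein genes, 44.7% of translation factors, 33.3% of biogenesis genes and 32.6% of NDUF genes.

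Member genes were short and lay among many others. Their records had a median length of 5.01 kb (all genes 24.2 kb) and 16 other protein-coding genes within 500 kb (all genes 12). Among records under 10 kb, 16 of 63 members (25.4%) and 11.4% of all genes were within 40 kb of a mock boundary, and 20.3% and 12.1% within 40 kb of a PA+OA boundary. By the number of genes within 500 kb, the mock counts were 1 of 9 members and 10.1% of all genes at up to 6, 10 of 25 members and 12.2% from there to 12, 2 of 15 and 11.3% from there to 23, and 6 of 23 and 9.61% above. The PA+OA counts in the same classes were 0 of 9 members and 9.58% of all genes, 9 of 25 and 11.5%, 1 of 15 and 11.1%, and 5 of 24 and 10.8%. The members near boundaries were thus mainly in the second and the highest class.

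Of the members near a boundary, only RPS9 was on a chromosome of long domains. On chromosomes 9, 13, 14, 15, 19, 21 and 22, where the mean domain is long in at least 1 list, none of 21 members was within 40 kb of a mock boundary, and 5.29% of all genes there were. Of them, RPS9 alone was near a PA+OA boundary (4.76%, all genes 3.52%). On the other 16 chromosomes 19 of 51 members were near a mock boundary (37.3%, all genes 12.4%) and 14 of 52 near a PA+OA boundary (26.9%, all genes 12.8%). These 7 chromosomes were picked with the data seen, and genes in long domains are farther from boundaries by construction, so the gap between the chromosome groups is a description. In mock domains under 1 Mb, 15 of 25 members and 22.9% of all genes were within 40 kb of a mock boundary, and in longer domains 4 of 47 (8.51%) and 4.8%.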

How the data were processed

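Hi-C libraries of HepG2, 1 per group, were compared through the authors' deposited domain lists, whose values are start and end positions in base pairs with no score. The submitters' processing notes name FastQC, HiC-Pro and build hg38. Which tool called the domains, how contacts were normalized and how deep the libraries were is not given in the sources used here. Every position was a multiple of 40 kb. Domains followed each other without gaps, and 136 mock and 108 PA+OA entries had zero length and counted as edges only. The first and last edge of a chromosome counted as boundaries. Edges within 1 bin were merged, giving 2519 mock and 2396 PA+OA boundaries.

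Genes were placed by the midpoint of their RefSeq record with Python 3.11.15 and pandas 2.3.3. An edge counted as matched when a boundary of the opposite list lay at most 1 bin away. Wilson intervals (scipy 1.17.1) go with shares, and medians have intervals from binomial ranks. The placement was tested on simulated data. The members and gene lists were chosen with earlier results of these data known, and values are given for fixed loci (stalk genes, RPSA, RPS6, RPL5, RPL11, RPS19, RPL3), the members nearest to boundaries, those with boundaries of 1 list only, the largest differences in domain size, the smallest and largest domains and the pairs. Neighbouring genes and other examples were named after their values were seen. The 3 read-through genes and RPS19BP1 fit the symbol pattern and were left out by judgement. The 7 chromosomes of long domains were picked in earlier work with the data seen, as those whose mean domain is long in at least 1 list. No test was made, with 1 library per group. Some members are counted and not reported here by name.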

Additional observations from a re-analysis of the deposited data

How the results depend on the processing

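The alternatives varied the edge tolerance (0, 2 or 3 bins), the gene position (record start or end, or transcription start for the 62 members with a known strand), the chromosomes, the handling of chromosome ends, merged edges and short domains, the member list and the window. Of 446 values under these alternatives, 437 stayed within the interval of the reported value, or within 1.5 times for counts of pairs. Many alternatives could move a value little or not at all. Chromosomes 7 and 21 hold no member, the autosomes alone are the same set as all but chromosome X, and most chromosomes hold few members. The counts of alternatives are thus not counts of independent checks. The share of members near a boundary exceeded that of all genes under each of the 35 alternatives in either list. It fell to 12.5% (mock) and 11.0% (PA+OA) at 20 kb and, for PA+OA, rose to 31.5% at 80 kb, as the window sets. Leaving out each chromosome in turn gave 22.1 to 31.2% for mock boundaries and 15.9 to 22.6% for PA+OA boundaries. Pairs in 1 domain numbered 5 (mock) and 4 (PA+OA) by transcription start, where fewer members were placed, 3 and 2 without the 7 chromosomes of long domains, and 4 and 3 without chromosome 19. The median distance to a PA+OA boundary was above that of all genes under 31 of 33 alternatives and below it under 2 (without the 7 chromosomes, and without chromosome 4 at 316 against 317 kb), so its direction is not settled. The depth behind the lists is unknown, so the precision of an edge could not be given. No paired analysis was possible because each group has 1 library and no result comes from a test.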
